A study of Caenorhabditis elegans with 14 samples.

Results

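The genes described here are 10 regulators and effectors of the *Caenorhabditis elegans* molting cycle, chosen by name from the rows of the deposited count files. They are *nhr-23*, *nhr-25*, *mlt-8*, *mlt-9*, *mlt-10*, *mlt-11*, *nas-36*, *nas-37*, *acn-1* and *bli-5*, that is 10 of the 42048 genes listed, and all 10 passed the filters on low counts used below. The study asked what is lost in worms without NFKI-1 or IKB-1, the nematode homologs of the mammalian IκB proteins. RNA from whole animals at 25 °C was sequenced at the L4 larval stage, 36 h after synchronization, in *nfki-1(cer1)* (strain CER178, a 368 bp deletion near exon 2), *ikb-1(nr2027)* (CER185, a 1911 bp deletion that takes out the ankyrin repeats), the double mutant *nfki-1(cer1); ikb-1(nr2027)* (CER188) and wild type (WT, N2 Bristol), with 2 files for each strain. At L1, after 5 h with food and 3 h without, 2 libraries each were made from *nfki-1(cer2)* (CER187, a 434 bp deletion with a 50 bp insertion in exon 2), *ikb-1(cer9)* (CER244, a 462 bp deletion that includes the start codon) and WT. The alleles at L1 are therefore not those at L4.

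A nematode larva replaces its collagenous cuticle at the end of each larval stage. The epidermis first detaches from the old cuticle and secretes a new one, and the animal then escapes from the old sheath in a step called ecdysis. The genes that drive this are transcribed in a wave once per stage, so their level in a synchronized culture depends on where in the stage the animals are. NHR-23 and NHR-25 are nuclear receptors at the head of this program, and the products of the other 8 genes are secreted or membrane proteins of the epidermis and cuticle, among them astacin proteases and Kunitz-type protease inhibitors.

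On the WBcel235 assembly *nhr-23* lies on chromosome I (7214745 to 7221299, plus strand), *nas-36* on I (7527224 to 7531715, plus), *mlt-10* on II (546705 to 552032, plus), *mlt-8* on II (569210 to 572110, minus) and *bli-5* on III (13427640 to 13429768, minus). The gene *mlt-11* lies on V (20667205 to 20678537, plus), and 4 genes are on X, namely *acn-1* (5092481 to 5097067, minus), *nas-37* (9944844 to 9949063, minus), *nhr-25* (13008493 to 13013964, plus) and *mlt-9* (15101786 to 15107797, minus). Exons of *mlt-10* and *mlt-11* share 125 and 202 bp with neighboring gene models, and those of *nas-37*, *acn-1* and *bli-5* share 32, 58 and 82 bp with antisense genes. Whether the counting used strand is not given in the sources used here, so reads in those stretches cannot be assigned.

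Reads on genes numbered 19735958 to 22373456 per L4 file and 57740500 to 63394016 per L1 library. The 2 files of each L4 strain had a squared difference of 3.31 to 3.87 times the counting variance, against 15.9 to 19.5 times at L1. Once the difference shared by all strains was removed, this was 0.462 to 0.524 times at L4, less than sampling noise, and 6.17 to 11.3 times at L1. They were counted as 1 sample per strain, so L4 has no replicate spread, and the 95% interval beside an L4 ratio is an exact binomial one on the summed reads. It covers counting error only. The files agreed more closely than independent reads would, so their summed reads are not all independent and the interval is too narrow. Each mutated gene was lower where the labels place its mutation. At L4, *nfki-1* had 7.97 and 7.20 CPM (reads per 1e6 reads on genes) in *nfki-1(cer1)* and 8.08 and 8.61 CPM in the double mutant, against 42.1 and 42.7 CPM in WT. Likewise *ikb-1* had 4.05 and 3.48 CPM in *ikb-1(nr2027)* and 3.43 and 2.91 CPM in the double mutant, against 13.3 and 13.6 CPM in WT. The intact gene was lower too, with 6.43 CPM of *ikb-1* in *nfki-1(cer1)* and 27.4 CPM of *nfki-1* in *ikb-1(nr2027)*, at log2 ratios to WT of -1.06 and -0.63. At L1, *nfki-1* had 89.8 and 70.1 CPM in *nfki-1(cer2)* against 143 and 137 CPM in WT, and *ikb-1* had 2.05 ± 0.78 CPM in *ikb-1(cer9)* against 46.4 ± 2.0 CPM in WT (SD, n = 2 each). All CPM values were scaled with the trimmed mean of M-values (TMM).

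In L4 larvae most of the 10 genes were lower in the IκB mutants than in WT. With 2-fold (log2 ratio of 1) as the mark, 8 of the 10 were lower with *nfki-1(cer1)*, 7 with *ikb-1(nr2027)* and 6 with both mutations, and 0 were 2-fold higher in any of them. Over the 15936 genes with enough reads, 25.2% were at least 2-fold lower and 27.6% higher in larvae of *nfki-1(cer1)*. In those of *ikb-1(nr2027)* these shares were 22.6% and 26.3%, and the double mutant had 8.49% lower and 19.7% higher. The median log2 ratio of the 10 genes to WT was -2.23 with *nfki-1(cer1)*, -1.69 with *ikb-1(nr2027)* and -1.08 with both mutations, beside -0.10, -0.10 and -0.05 over all those genes. The 3 comparisons share the WT sample, and the double mutant shares its alleles with both single mutants.

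**Figure D1:**
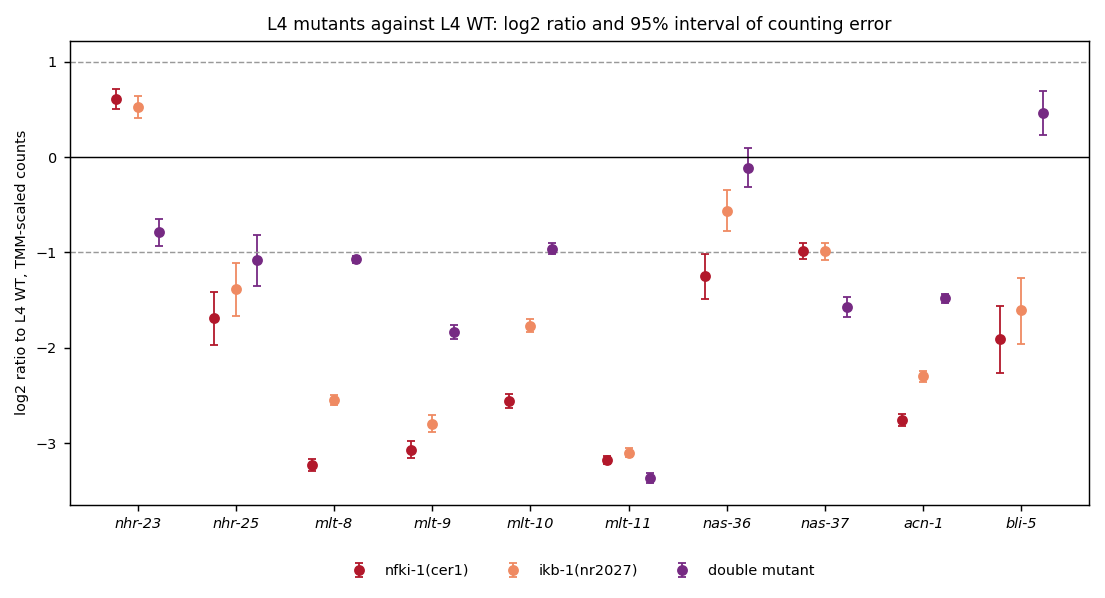
Log2 ratio to L4 WT (y axis, TMM-scaled counts) of each of the 10 genes in the 3 mutant strains, with bars for the 95% interval of counting error and dashed lines at 2-fold. Of the 30 points, 3 lie above 0, those of *nhr-23* in both single mutants and of *bli-5* in the double mutant, while *mlt-11* lies near -3 in all 3 strains.

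The test used 1 edgeR quasi-likelihood fit over the 4 summed L4 samples and the 6 L1 libraries. It takes the spread from the L1 libraries and assumes that each L4 strain varies like them. Calls needed an adjusted p under 0.01 together with a log2 change of 2 or more either way, and none of the 10 genes was called in any L4 mutant. Over all 21293 genes tested, 0.315% were called lower for *nfki-1(cer1)*, 0.0423% for *ikb-1(nr2027)* and 0.0% for the double mutant. At an unadjusted p below 0.05, 7 of the 10 genes passed for *nfki-1(cer1)*, 5 for *ikb-1(nr2027)* and 1 for the double mutant, beside 7027, 6362 and 2832 of all genes. With the L1 replicate number as a block in the same fit, *mlt-9*, *mlt-10* and *mlt-11* were called lower in *nfki-1(cer1)* (edgeR adjusted p = 0.00156, 0.00776 and 0.00171), and *mlt-9* and *mlt-11* in *ikb-1(nr2027)* (adjusted p = 0.00241 for both). In that fit 2.44% of all genes were called lower for *nfki-1(cer1)*, 1.23% for *ikb-1(nr2027)* and 0.0235% for the double mutant, where none of the 10 was called.

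Of the nuclear receptors, *nhr-23* encodes a relative of the mammalian ROR receptors that is needed at every larval molt. Its level was 49.2 and 50.1 CPM in *nfki-1(cer1)* files, 47.5 and 46.1 CPM in *ikb-1(nr2027)* and 18.4 and 19.3 CPM in the double mutant, against 33.5 and 31.6 CPM in WT. Both single mutants thus lay above WT and the double mutant below it. The log2 ratio to WT was 0.61 (0.50 to 0.72) for *nfki-1(cer1)*, 0.53 (0.41 to 0.64) for *ikb-1(nr2027)* and -0.79 (-0.93 to -0.64) for the double mutant. By edgeR the adjusted p was 0.379, 0.470 and 0.510 in that order. With library totals in place of TMM, the ratio in *nfki-1(cer1)* was 1.08, past 2-fold.

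The second receptor, *nhr-25*, is the homolog of the fly ecdysone-cascade factor FTZ-F1 and acts in the epidermis. It was the lowest of the 10 per kilobase of exon in every L4 group. It had 3.33 and 3.47 CPM in *nfki-1(cer1)*, 4.20 and 4.20 CPM in *ikb-1(nr2027)* and 4.71 and 5.65 CPM in the double mutant, against 10.2 and 11.7 CPM in WT. The mutants all lay below WT, at log2 ratios of -1.69, -1.38 and -1.08. These rest on 155, 162 and 178 reads, against 355 in WT.

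The *mlt* genes were found through larvae that fail to shed the cuticle. The most abundant per kilobase in all 4 L4 groups was *mlt-8*. It had 50.2 and 55.4 CPM in *nfki-1(cer1)*, 80.3 and 89.2 CPM in *ikb-1(nr2027)* and 227 and 246 CPM in the double mutant, against 469 and 524 CPM in WT. The groups formed 4 separate steps, and WT was 9.40-fold above *nfki-1(cer1)*, 5.86-fold above *ikb-1(nr2027)* and 2.10-fold above the double mutant. The gene *mlt-9* had 25.6 and 25.5 CPM in *nfki-1(cer1)*, 31.5 and 30.3 CPM in *ikb-1(nr2027)* and 61.5 and 58.8 CPM in the double mutant, against 218 and 211 CPM in WT. Every mutant lay far below WT, at log2 ratios of -3.07, -2.80 and -1.84.

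The product of *mlt-10* is a secreted proline-rich protein, and its promoter is a common reporter of the molting cycle. It had 37.99 and 36.5 CPM in *nfki-1(cer1)*, 64.2 and 64.8 CPM in *ikb-1(nr2027)* and 114 and 112 CPM in the double mutant, against 219 and 219 CPM in WT. The same 4 steps appeared, at log2 ratios of -2.56, -1.77 and -0.96. In each L1 strain *mlt-10* differed more between the 2 libraries than any other of the 10 genes, and its L4 standard error in the joint edgeR fit was 2.05 to 2.15 on the log2 scale (adjusted p = 0.474, 0.650 and 0.998).

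MLT-11 is a Kunitz-type protease inhibitor needed for a complete molt. Its gene had 108 and 107 CPM in *nfki-1(cer1)*, 114 and 113 CPM in *ikb-1(nr2027)* and 95.4 and 92.5 CPM in the double mutant, against 979 and 965 CPM in WT. Here the 3 mutants lay close together and far below WT, and the double mutant was the lowest. The log2 ratios were -3.18 (-3.22 to -3.13), -3.10 (-3.15 to -3.05) and -3.37 (-3.42 to -3.32), that is 9.04-, 8.57- and 10.3-fold lower. In the double mutant it had the lowest ratio of the 10 genes, with *mlt-9* next at -1.84. The edgeR adjusted p was 0.0701, 0.0876 and 0.203.

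A further Kunitz-type inhibitor, *bli-5*, whose loss blisters the cuticle, behaved otherwise. It had 1.97 and 2.24 CPM in *nfki-1(cer1)*, 2.90 and 2.28 CPM in *ikb-1(nr2027)* and 11.2 and 10.6 CPM in the double mutant, against 7.98 and 7.84 CPM in WT. The single mutants were below WT and the double mutant above it, at log2 ratios of -1.91 (-2.26 to -1.57), -1.61 (-1.96 to -1.27) and 0.46 (0.23 to 0.70). Set against each single mutant, the double mutant was 5.18-fold above *nfki-1(cer1)* and 4.21-fold above *ikb-1(nr2027)*. The smallest adjusted p of any of the 10 genes at L4 in the fit without a block was that of *bli-5* in *nfki-1(cer1)* (edgeR adjusted p = 0.0391).

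The astacin metalloproteases NAS-36 and NAS-37 open the old cuticle at ecdysis. For *nas-36* the files gave 5.04 and 5.40 CPM in *nfki-1(cer1)*, 7.37 and 9.44 CPM in *ikb-1(nr2027)* and 10.8 and 12.2 CPM in the double mutant, against 12.1 and 12.7 CPM in WT. The double mutant overlapped WT, with a log2 ratio of -0.11 whose interval spans 0 (-0.31 to 0.10) and which was 0.08 by library totals. In the single mutants the ratios were -1.25 and -0.56. The order was different for *nas-37*, which had 41.7 and 42.3 CPM in *nfki-1(cer1)*, 40.5 and 43.2 CPM in *ikb-1(nr2027)* and 26.2 and 29.5 CPM in the double mutant, against 81.2 and 84.7 CPM in WT. The single mutants could not be told apart (log2 ratio of *nfki-1(cer1)* to *ikb-1(nr2027)* 0.01, -0.09 to 0.10), and the double mutant was the lowest, at -1.57 against WT.

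ACN-1 resembles angiotensin-converting enzyme but lacks the residues of its active site, and worms without it arrest at the molt. The gene had 54.03 and 54.6 CPM in *nfki-1(cer1)*, 73.6 and 75.9 CPM in *ikb-1(nr2027)* and 131 and 132 CPM in the double mutant, against 367 and 369 CPM in WT. As for *mlt-8*, *mlt-9* and *mlt-10* the groups formed 4 separate steps, with log2 ratios of -2.76, -2.30 and -1.48. Neither fit called it at L4 (edgeR adjusted p = 0.151, 0.228 and 0.667, and 0.0131, 0.0250 and 0.172 with the block).

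**Figure D2:**
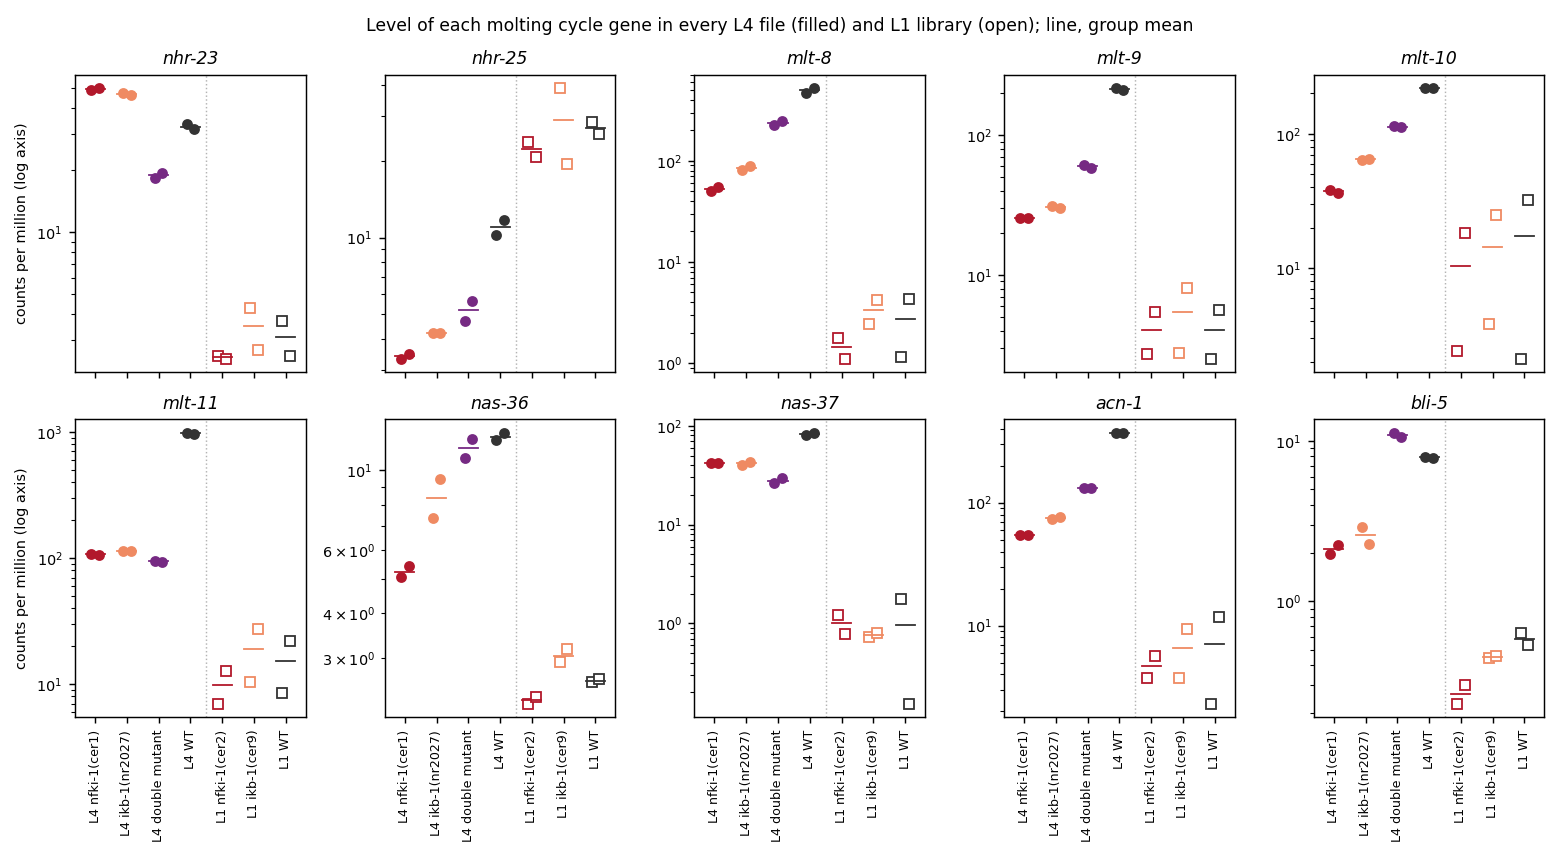
CPM (TMM-scaled, log axis) of the 10 genes, with the L4 mutants left of L4 WT and the L1 mutants left of L1 WT, filled points for the 2 files of an L4 strain, open squares for the 2 L1 libraries and a line for the group mean. L4 WT is the highest group for 7 of the genes, *nhr-25* alone is higher at L1 than at L4, and the L1 libraries of *mlt-10* and *nas-37* WT lie far apart.

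The double mutant lay between WT and both single mutants for 6 genes (*nhr-25*, *mlt-8*, *mlt-9*, *mlt-10*, *nas-36* and *acn-1*). In all 6 the level was lowest in *nfki-1(cer1)*, next in *ikb-1(nr2027)*, then in the double mutant and highest in WT, and 3 neighboring pairs differed by no more than counting error. These were the double mutant and WT for *nas-36*, and for *nhr-25* both the pair of single mutants and the double mutant with *ikb-1(nr2027)*. In 2 genes, *mlt-11* and *nas-37*, the double mutant lay beyond both single mutants, and in the other 2, *nhr-23* and *bli-5*, it lay on the opposite side of WT. For *mlt-8* the double mutant was 4.47-fold above *nfki-1(cer1)* and 2.79-fold above *ikb-1(nr2027)*. For *nhr-23* it was 2.63- and 2.48-fold below them. These differences of the double mutant from the single mutants are descriptions and were not tested.

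Scaling mattered at L4. With library totals in place of TMM, the all-gene median ratio to WT moved up on the log2 scale by 0.47 for *nfki-1(cer1)*, 0.41 for *ikb-1(nr2027)* and 0.19 for the double mutant. Every L4 ratio to WT given above moved up by as much. For *nfki-1(cer1)*, 4393 genes lay 2-fold above WT and 4014 below it by TMM, but 5786 and 2263 by totals. For *ikb-1(nr2027)* the numbers were 4198 and 3600 by TMM, and 5410 and 2018 by totals. For the double mutant they were 3133 and 1353 by TMM, and 3541 and 1003 by totals. By totals 7, 6 and 4 of the 10 genes were 2-fold lower in these single mutants and the double mutant.

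The other transcription factors and timers of the cycle were lower too. From the list *grh-1*, *blmp-1*, *myrf-1*, *bed-3*, *nhr-85* and *lin-42*, 6 of 6 were at least 2-fold lower in each single mutant and 4 of 6 in the double mutant, with medians of -1.97, -1.72 and -1.33. The Period homolog *lin-42* had 52.2 CPM in *nfki-1(cer1)*, 67.6 CPM in *ikb-1(nr2027)* and 132 CPM in the double mutant, against 352 CPM in WT, and fell in *nfki-1(cer1)* (log2 fold change -2.76, edgeR adjusted p = 0.00788). The Grainyhead factor *grh-1* had 8.91, 9.23 and 15.3 CPM in the same mutants, against 56.1 CPM in WT. With the block, *grh-1* and *lin-42* were called lower in both single mutants. The membrane-bound factor *myrf-1* had log2 ratios of -2.26, -1.97 and -2.14, the Blimp-1 homolog *blmp-1* -1.66, -1.33 and -1.25, the zinc finger gene *bed-3* -1.67, -1.21 and -0.57, and the Rev-Erb-like receptor gene *nhr-85* -1.66, -1.47 and -0.64.

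Of 22 further genes needed to shed the cuticle, 13 were at least 2-fold lower for *nfki-1(cer1)*, 12 for *ikb-1(nr2027)* and 9 for the double mutant. In the same order 0, 0 and 1 were higher, with medians of -1.32, -1.11 and -0.75. The lowest on average were *noah-2* and *noah-1*, which encode zona pellucida domain proteins of the apical extracellular matrix, and the fibrillin-like *fbn-1*. In the double mutant *fbn-1* was 20.2-fold lower, at 10.3 CPM against 208 CPM in WT. At the other end were *nas-6*, on 8, 11 and 28 reads in the mutants against 11 in WT, the dual oxidase gene *bli-3* (log2 ratios 0.05, 0.05 and -0.11) and the peroxidase gene *mlt-7* (-0.24, 0.06 and 0.05). By edgeR none of the 22 was called without the block. With it, *noah-1*, the hedgehog-related *qua-1* and the Patched-related *ptc-3* were called lower in *nfki-1(cer1)* (edgeR adjusted p = 0.00580, 0.00602 and 0.00288) and *noah-1* in *ikb-1(nr2027)* (adjusted p = 0.00937).

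**Figure D3:**
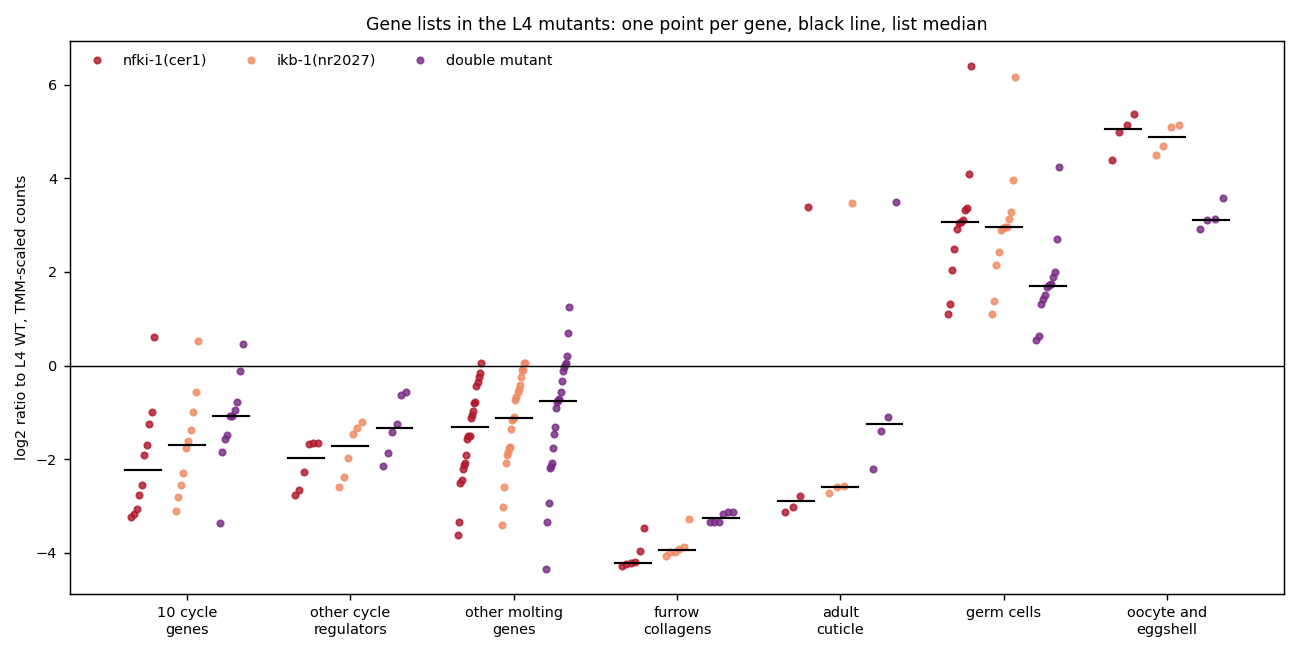
Log2 ratio to L4 WT (y axis, TMM-scaled counts) of single genes in 7 lists, with the 3 mutant strains side by side and a black line at the median of each list. Furrow collagens lie lowest, near -4 in the single mutants, and the germ cell, oocyte and eggshell genes lie above 0 in all 3 mutants, with 1 adult cuticle gene, *col-19*, above 3.

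Markers of other programs moved with these genes at L4. The adult collagen gene *col-19* had 2545 CPM in *nfki-1(cer1)*, 2712 CPM in *ikb-1(nr2027)* and 2730 CPM in the double mutant, against 244 CPM in WT. Its list holds 6 adult cuticle genes, and 4 of them had enough reads. Of these 4, *rol-6*, *bli-1* and *bli-2* were at least 2-fold lower in every mutant, and the medians of the 4 were -2.90, -2.58 and -1.26. The other 2, *col-7* and *col-62*, stood above WT in every mutant, on only 0 to 7 reads per file. All 6 furrow collagen genes, which are switched on early in each molt, were lower, with 16.3, 19.4 and 35.2 CPM of *dpy-7* in these mutants against 306 CPM in WT. Summed over 4 oocyte and eggshell genes the level was 2874, 2658 and 862 CPM against 89.0 CPM in WT, and over 12 germ cell genes 2934, 2851 and 1422 CPM against 563 CPM in WT. The 4 sperm genes summed to 5.02, 5.24 and 4.80 CPM against 1.45 CPM in WT, with *ssp-9* at 0 in every file and *msp-56* at 1 read in 1 file. The sum thus rests on *msp-142* and *spe-9*, and the 2 files of each strain differed widely for *msp-142*. The gene *msp-142* had 103 and 12, 88 and 11, and 72 and 20 reads in these mutants, against 21 and 2 in WT. Genes of body wall muscle (medians -1.19, -0.72 and -0.67, 4 genes), intestine (-0.88, -0.98 and -0.34, 4 genes) and neurons (-0.85, -0.82 and -0.37, 4 genes) were below WT on balance. Of 5 epidermis genes, *che-14* and *dpy-7* were at least 2-fold lower in every mutant and none was 2-fold higher, with list medians of -0.15, -0.25 and -0.51. Here *dpy-7* counts a second time, since it is also a furrow collagen gene. The log2 ratios were 0.46, 0.40 and -0.27 for *elt-1* and -0.15, -0.25 and -0.42 for *elt-3*. The apical membrane gene *che-14* had 11.5, 13.9 and 20.8 CPM against 54.4 CPM in WT, and the transcription factor gene *lin-26* 82.8, 80.2 and 56.5 CPM against 80.3 CPM in WT. By library totals the epidermis medians were 0.32, 0.16 and -0.31, so their sign in the single mutants depended on the scaling. Those of muscle, intestine and neurons stayed below 0. In whole animals, fewer epidermal cells, less RNA per cell and another position in the larval stage cannot be told apart. The part that these shifts had in the values of the 10 genes was not tested.

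Between the stages, 8 of the 10 genes were called higher in L4 WT than in L1 WT, beside 8.25% of all genes called higher in the joint edgeR fit. With the block, which sets the L1 level at replicate 1, *mlt-10* joined them, and 10.8% of all genes were called higher. Stage, time with food, sequencing depth and library set differ together here and cannot be told apart. The widest gap was that of *mlt-8*, with 469 and 524 CPM in L4 WT against 1.15 and 4.25 CPM in L1 WT (log2 fold change 7.53 ± 0.82 SE, adjusted p = 0.00142). Next came *nas-37* (6.40 ± 1.06, adjusted p = 0.00499) and *mlt-11*, with 979 and 965 CPM in L4 WT against 8.58 and 21.8 CPM in L1 WT (adjusted p = 0.00245). Both leading values moved with single WT libraries. Without L1 WT replicate 1 or 2, the log2 fold change was 9.05 or 5.51 for *nas-37*, whose replicate 2 has 9 reads, and 6.87 or 8.71 for *mlt-8*. With the block it was 6.12 for *nas-37*, below those of *acn-1*, *mlt-11*, *mlt-9* and *mlt-10*. Without the block the log2 fold changes were 5.73 for *mlt-9*, 5.71 for *acn-1*, 3.76 for *bli-5*, 3.39 for *nhr-23* and 2.26 for *nas-36*. The calls of *nas-37* and *acn-1* were lost when either L1 *ikb-1(cer9)* library was left out (adjusted p = 0.0156 and 0.0164 for *nas-37*, 0.0123 and 0.0122 for *acn-1*), and that of *nas-36* when library totals were used, where the log2 fold change was 1.68.

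The exception was *nhr-25*, with 10.2 and 11.7 CPM in L4 WT against 28.5 and 25.6 CPM in L1 WT. The L4 files lay below both L1 libraries, but the difference was not called (log2 fold change -1.30 ± 0.44 SE, edgeR adjusted p = 0.0510). Per kilobase of exon, *nhr-25* was the highest of the 10 in every L1 group, at 8.68 CPM in *nfki-1(cer2)*, 11.3 CPM in *ikb-1(cer9)* and 10.5 CPM in WT. Of the other regulators, *lin-42*, *bed-3* and *blmp-1* were called higher in L4 WT, joined by *myrf-1* with the block (edgeR adjusted p = 0.00440). Among the 22 further molting genes 6 were called higher and 2 lower, beside 17.9% of all genes called in either direction.

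At L1 none of the 10 genes was called against WT. The edgeR fit over the 6 libraries called 0.0% of 19183 genes for *nfki-1(cer2)* and 0.0% for *ikb-1(cer9)*. At an unadjusted p below 0.05 it gave 175 and 234 genes (0.912% and 1.22%), none of the 10 among them. These shares are smaller than unchanged genes would give at that mark, so the fit was conservative. Its lack of calls does not show equal levels. With the replicate block 557 and 602 genes lay below 0.05, with 2 of the 10 (*mlt-11* and *bli-5*, both lower) among them for *nfki-1(cer2)* and 0 for *ikb-1(cer9)*, and again none was called. DESeq2 called 2 and 10 genes, again none of the 10. The level of all 10 genes summed was 47.7 and 69.7 CPM in *nfki-1(cer2)* and 70.4 and 101 CPM in *ikb-1(cer9)*, against 53.8 and 107 CPM in WT. These ranges overlap. The median log2 fold change of the 10 was -0.45 for *nfki-1(cer2)* and 0.12 for *ikb-1(cer9)*, beside -0.00 and -0.02 over all genes.

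In *nfki-1(cer2)*, *nhr-25*, *nas-36* and *bli-5* were lower in both libraries than in both of WT, and none was higher. Over all genes 10.4% were lower and 11.3% higher by this mark. In *ikb-1(cer9)*, *bli-5* was lower and *nas-36* higher in both libraries, beside 8.72% and 7.74% of all genes. For *bli-5* the levels were 0.230 and 0.299 CPM in *nfki-1(cer2)* and 0.441 and 0.459 CPM in *ikb-1(cer9)*, against 0.632 and 0.531 CPM in WT. They rest on 16 to 45 reads per library, with edgeR log2 fold changes of -1.13 ± 0.47 SE and -0.39 ± 0.46 SE. For *nas-36* the levels were 2.24 and 2.35 CPM in *nfki-1(cer2)* and 2.93 and 3.18 CPM in *ikb-1(cer9)*, against 2.57 and 2.62 CPM in WT. That is a log2 fold change of -0.18 ± 0.26 SE and 0.21 ± 0.26 SE.

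Some of the 10 genes differed more between replicate numbers than between strains. In replicate 2 of every L1 strain *mlt-10* was at least 2-fold higher than in replicate 1, with 2.40 and 18.2 CPM in *nfki-1(cer2)*, 3.81 and 24.9 CPM in *ikb-1(cer9)*, and 2.11 and 32.3 CPM in WT. Over all genes, 1.68% were 2-fold higher and 2.57% 2-fold lower in replicate 2 of all 3 strains, and *mlt-10* was the only one of the 10. The inhibitor gene *mlt-11* had 7.02 and 12.7 CPM in *nfki-1(cer2)*, 10.5 and 27.4 CPM in *ikb-1(cer9)*, and 8.58 and 21.8 CPM in WT, higher in replicate 2 each time. For *nas-37* only WT split widely, with 1.77 and 0.154 CPM on 126 and 9 reads, against 1.21 and 0.787 CPM in *nfki-1(cer2)* and 0.735 and 0.803 CPM in *ikb-1(cer9)*. Within a replicate number, 5 of the 10 genes were lower in *nfki-1(cer2)* than in WT in both and 5 had mixed signs. In *ikb-1(cer9)* 4 were higher in both, 1 was lower in both and 5 had mixed signs. The shares of all genes with such signs were not computed, so these counts are not a result about the 10 genes. Regulators differed as well, since *nhr-85* had 57.9 and 27.7 CPM, 50.4 and 21.95 CPM, and 53.7 and 24.3 CPM in replicates 1 and 2 of *nfki-1(cer2)*, *ikb-1(cer9)* and WT.

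**Figure D4:**
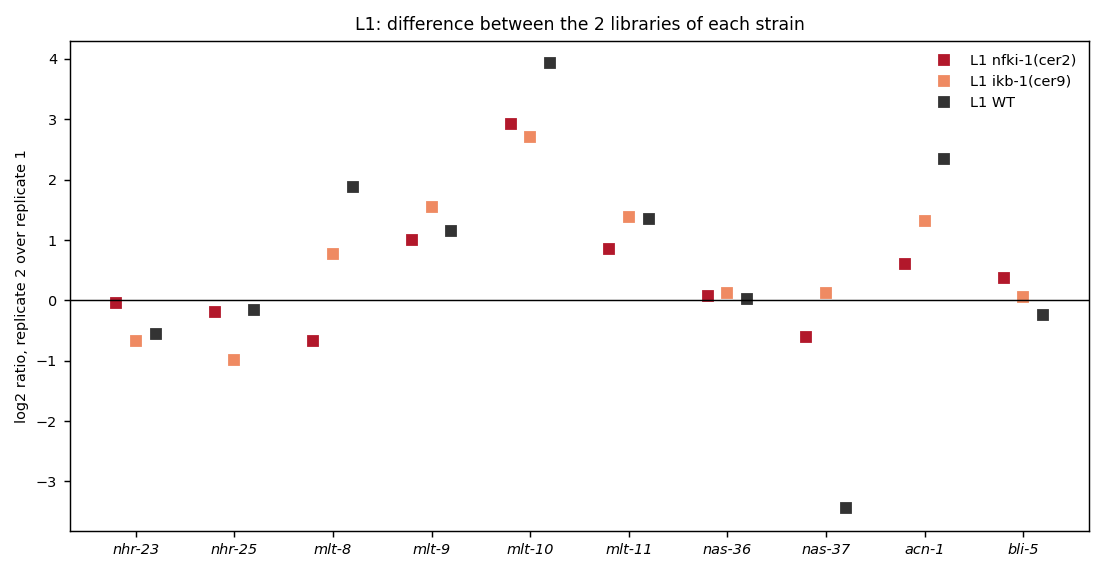
Log2 ratio of replicate 2 to replicate 1 (y axis) of the 10 genes in L1 *nfki-1(cer2)*, *ikb-1(cer9)* and WT, 1 square for each strain. The 3 squares of *mlt-10* lie between 2.71 and 3.93, those of *nas-36* near 0, and *nas-37* in WT lies at -3.45.

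Across the 7 group means, 8 of the 10 genes followed their common mean profile closely, high at L4 and low at L1. The correlation with the mean profile of the 10, on log2(CPM + 1), was 0.999 for *acn-1*, 0.994 for *mlt-8*, 0.991 for *mlt-9*, 0.983 for *mlt-10*, 0.971 for *nas-36*, 0.969 for *mlt-11*, 0.958 for *nas-37* and 0.926 for *bli-5*. It was 0.863 for *nhr-23* and -0.717 for *nhr-25*. All 7 points of such a correlation share the split between L4 and L1, and each of the 10 genes is part of the mean it is set against. Among 8770 other genes averaging 10 CPM or more, those most like the mean profile were *H42K12.3*, *ppat-1*, *lron-11*, *dao-2* and *Y38A10A.2*, with r between 0.997 and 0.999. For example, *dao-2* had 65.5 CPM in *nfki-1(cer1)*, 80.4 CPM in *ikb-1(nr2027)* and 165 CPM in the double mutant, against 1083 CPM in L4 WT, and 1.10 to 3.72 CPM at L1.

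The profile of *nhr-23* itself had other neighbors. The genes most like it were *pqn-27*, *let-607*, *ubxn-3*, *rnr-2* and *Y37E11AL.3*, with r between 0.995 and 0.999. They were above WT in both L4 single mutants and below it in the double mutant. This follows from their choice by likeness over the same group means. The ribonucleotide reductase gene *rnr-2* had 301 CPM in *nfki-1(cer1)*, 252 CPM in *ikb-1(nr2027)* and 164 CPM in the double mutant, against 201 CPM in WT. Among the other 9 genes, *nas-37* was the closest to *nhr-23* (r = 0.964) and *nhr-25* ran against it (r = -0.921).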

How the data were processed

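Total RNA of whole worms was sequenced from 4 strains at L4 and 3 at L1. The authors trimmed reads with Trim Galore (quality over 30, length over 20 bp), aligned them to WBcel235 with Bowtie2, kept unique alignments and counted reads per gene with HTSeq 0.9.1, and the deposited values are these raw counts (14 files). CASAVA 1.4 is named in the submitters' processing notes. The annotation release and the strand setting are not given in the sources used here. The labels also describe dissociation and amplification steps that the study's methods do not.

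Rows that name no gene, 13.4 to 15.9% of reads at L4 and 15.9 to 20.0% at L1, were left out of library sizes. Gene positions came from Ensembl 115. L4 files were summed per strain, since they agreed within sampling noise once the difference shared by all strains was removed. Counts were tested with edgeR 4.0.16 (TMM, minimum count 10, quasi-likelihood) in R 4.3.3, with Benjamini-Hochberg adjustment over all genes, at an adjusted p below 0.01 and, outside L1, a log2 fold change of at least 2. DESeq2 1.42.0 was an alternative. Scripts were tested on simulated data. The labels number 2 L1 libraries per strain, but the series' design text gives 1 L1 replicate, and nothing says that they came from separate cultures. All p-values, those at L4 included, thus measure the spread between these libraries, which may be technical. Deviations of same-numbered L1 libraries correlated across strains (r = 0.743, 0.477 and 0.495 over 13875 genes). Calls with the replicate number as a block are therefore given where they differ for the 10 members, the 6 other regulators or the 22 further molting genes. They are not given for the markers. The genes named were the 10 members, all 6 other regulators, the 3 highest and 3 lowest of 22 further molting genes by mean L4 ratio, the 5 genes of most similar profile, the mutated genes and leading markers. Members and lists were chosen with earlier results of these data known. Alternatives were other scalings, filters, thresholds, DESeq2, L4 files as replicates and leaving out each library. Promoter and protein sequences were not analysed here.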

Additional observations from a re-analysis of the deposited data

Results flagged for a closer look

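The gene *nhr-23* stood above WT in both L4 single mutants and below it in the double mutant, with log2 ratios of 0.61 for *nfki-1(cer1)*, 0.53 for *ikb-1(nr2027)* and -0.79 for the double mutant. The inhibitor gene *bli-5* showed the opposite arrangement, with -1.91 for *nfki-1(cer1)*, -1.61 for *ikb-1(nr2027)* and 0.46 for the double mutant. In both genes the single mutants lay on one side of WT and the double mutant on the other, with 1 sample per strain. The share of all genes arranged in this way was not computed. The protease gene *nas-36* lay below WT in L4 *ikb-1(nr2027)* (-0.56) and above it in both libraries of L1 *ikb-1(cer9)* (0.21), while L1 *nfki-1(cer2)* lay below WT (-0.18). The alleles of *ikb-1* differ between the stages. By this mark of no overlap, 7.74% of all genes were higher in *ikb-1(cer9)* and 10.4% lower in *nfki-1(cer2)*, and both L1 fold changes are smaller than their standard error of 0.26. Each value was tested against WT by edgeR and none was called. The differences of one mutant, or one stage, from another were not tested.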

How the results depend on the processing

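The counts of genes lower or higher by 2-fold at L4 (8, 7 and 6 of 10, *nfki-1(cer1)* first, then *ikb-1(nr2027)*, then the double mutant) were 9, 8 and 7 with other size factors, 8, 6 and 4 with library totals, 8, 7 to 8, and 6 with 1 file alone, and 8, 7 and 6 without a filter. At a log2 ratio of 2 they were 5, 4 and 1, for which no share over all genes was computed. Over all 15936 genes, 4190, 3779 and 1519 were 2-fold lower with the other size factors, and 4265, 4101 and 2998 higher. With library totals 2263, 2018 and 1003 of them were lower, and 5786, 5410 and 3541 higher. No such counts were made with 1 file alone or without a filter. The calls at L4, 0 in each mutant, were 3, 2 and 0 with the replicate block (7.72%, 5.52% and 0.193% of all genes called, against 2.44%, 0.958% and 0.0%), and 3, 2 and 1 with DESeq2 (8.51%, 6.50% and 2.00%). *mlt-11* was the gene that DESeq2 called in the double mutant. With the L4 files taken as replicates, which counts sampling noise as the spread, they were 5, 4 and 1. The share of all genes called in that way was not computed. Leaving out any L1 library gave 0 in each. Library totals turned the log2 ratio of *nas-36* in the double mutant from below 0 to 0.084. Between L4 WT and L1 WT, 8 calls became 9 with the paired fit, 7 with library totals and 6 to 8 without single L1 libraries. The block changed no other call among the 10 genes. The cause of these shifts was not tested.

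At L1 no alternative called any of the 10 genes. Leaving out a single library changed the sign of 7 of the 10 fold changes for *nfki-1(cer2)* and 8 for *ikb-1(cer9)*, for *mlt-11* over ranges of -1.13 to 0.19 and -0.53 to 1.10. With a pseudocount of 0.1, 3 of the 5 genes named as most like the mean profile remained, and 5 of 5 for *nhr-23*. L4 has no replicate spread, and *bli-5* and *nas-37* at L1 rest on 9 to 126 reads per library.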
